A study of Mus musculus with 16 samples.

Results

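The RNA levels of 10 genes that build the meiotic chromosome axis and join homologous chromosomes were measured in mouse embryonic stem cells (ESCs) with and without the DNA methyltransferase gene Dnmt1. The genes are Smc1b, Stag3, Rec8, Hormad1, Sycp2, Sycp3, Sycp1, Syce1, Syce2 and Dmc1. They were chosen by name for their meiotic function, with earlier results of these data known, and all 10 are among the 26127 genes of the deposited table. Ribosome-depleted total RNA was sequenced in 16 libraries that the labels place in 3 genotypes. There were 8 wild-type (WT) libraries, 4 libraries of genotype Dnmt1-/- (Dnmt1 KO) and 4 libraries of genotype Dicer/Dnmt1 -/- (Dicer/Dnmt1 KO), so that both knockouts are labelled as lacking Dnmt1 and the second also as lacking Dicer1. The labels give E14 as the background strain, while the methods describe C57BL/6 ESCs as the parent of the conditional line, so it is unclear which line the libraries came from. According to the methods, Dnmt1 was deleted conditionally, through loxP sites and a Cre recombinase that tamoxifen switches on. Dicer1 was targeted by genome editing in that conditional Dnmt1 line, with clones grown from single cells, and both a conditional and a constitutive Dicer1 deletion are described. The labels do not say which of these the double knockout libraries carry. The labels give no time after deletion and do not say whether WT libraries received tamoxifen. Each library carries a number and a letter, A or B, whose meaning the labels do not give. If libraries of 1 number come from 1 culture, p-values measure in part a technical spread.

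In prophase of the first meiotic division, sister chromatids are held by cohesin complexes that contain meiosis-specific subunits, and these complexes organise each chromosome along a protein axis. Homologous axes are then zipped together by the synaptonemal complex, whose lateral elements are the axes themselves and whose central region is spanned by transverse filaments and central element proteins. Many of these genes are silent in somatic cells, and several are known to carry DNA methylation at CpG-rich promoters there, which is why cells without Dnmt1 are a setting in which their RNA is of interest. ESCs do not undergo meiosis.

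RNA of the targeted genes was checked first, in log2 RPM (RPM, reads per M reads of the library). Dnmt1 lay at 4.17 to 4.63 in Dnmt1 KO and at 4.49 to 4.64 in Dicer/Dnmt1 KO, below every WT library, so that some Dnmt1 RNA was still present in both. Dicer1 lay at 3.68 to 4.06 in Dicer/Dnmt1 KO, below the 4.56 to 5.68 of WT and the 5.29 to 5.68 of Dnmt1 KO. Libraries WT 4A and WT 4B stood apart, since their Dnmt1 levels were 5.69 and 5.55 log2 RPM while the other WT libraries lay between 7.40 and 7.66. Both still exceeded every knockout library in Dnmt1. They were also the lowest WT libraries for Dicer1, at 4.78 and 4.56 log2 RPM beside 5.15 to 5.68 in the other WT libraries. The part of these libraries in each result was checked by leaving them out. The libraries held 31.46 to 52.54 M reads, of which 13.9 to 25.44 M fell in genes, so that 3 reads, the limit that a count of 0 allows, equal 0.0571 to 0.0954 RPM. Such limits cover counting error only. All 8 ESC marker genes were measured above the filter on low values, with a summed level of 1850 to 3320 RPM in WT, 1690 to 2370 RPM in Dnmt1 KO and 1910 to 2240 RPM in Dicer/Dnmt1 KO. Of these 8, 3 fell in Dnmt1 KO against WT and 1 in Dicer/Dnmt1 KO, by the test used for all genes (limma, adjusted p under 0.05), which called 17.5% and 30.1% of all tested genes lower in the same comparisons.

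Markers of cells in which these meiotic genes normally act were mostly near the detection limit. Of 8 spermatocyte or spermatid markers only Hspa2 passed the filter. Hspa2 fell against WT in Dnmt1 KO (log2 -1.05, SE 0.11, limma adjusted p = 6.94e-07) and in Dicer/Dnmt1 KO (log2 -0.64, SE 0.11, limma adjusted p = 6.13e-05). The protamine gene Prm1, the acrosomal gene Acrv1 and Spata16 had 0 reads in all 16 libraries, and the summed level of the list was 5.21 to 6.97 RPM in WT, 3.15 to 4.38 RPM in Dnmt1 KO and 3.73 to 4.96 RPM in Dicer/Dnmt1 KO. Of 8 oocyte markers only Zp3, a gene of the egg coat, passed the filter. It rose in both knockouts against WT, by 2.22 log2 (SE 0.21, limma adjusted p = 2.98e-07) in Dnmt1 KO and by 1.75 log2 (SE 0.21, limma adjusted p = 2.06e-06) in Dicer/Dnmt1 KO, and the summed level of the oocyte list was at most 3.33 RPM in any library. In WT that sum was at most 0.951 RPM, so Zp3 passed the filter only through knockout libraries and its rise does not stand apart from the filter. Feeder fibroblast markers moved with genotype: 4 of the 6 tested rose in Dnmt1 KO and 5 of the 6 in Dicer/Dnmt1 KO, beside 23.5% and 31.9% of all tested genes called higher. The summed level of all 8 was 36.2 to 66.6 RPM in WT, 78 to 99.4 RPM in Dnmt1 KO and 81.6 to 143 RPM in Dicer/Dnmt1 KO, with Lum at 0 to 7 reads throughout. Their part in the results on the meiotic genes was not tested. In bulk RNA, a change in the share of cells that express a gene and a change in RNA per cell cannot be told apart.

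Every one of the 10 genes passed the filter, which asked for more than 1 RPM in at least 4 of the 16 libraries, and they did not move as a block. In Dnmt1 KO against WT, 5 genes rose (Sycp1, Hormad1, Syce1, Smc1b and Sycp2), 2 fell (Sycp3 and Dmc1), and Stag3, Rec8 and Syce2 did not pass the test. A gene counts as risen or fallen at a Benjamini-Hochberg adjusted p under 0.05 in limma over the 12892 genes tested. By the same test, 41% of all tested genes were called in this comparison, with 23.5% higher and 17.5% lower. The median log2 fold change was 0.57 over the 10 genes and 0.04 over all tested genes.

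In Dicer/Dnmt1 KO against WT, 4 genes rose (Hormad1, Smc1b, Sycp1 and Stag3) and 4 fell (Sycp3, Dmc1, Syce2 and Sycp2), in a comparison in which 61.9% of all tested genes were called, 31.9% higher and 30.1% lower. The median log2 fold change was 0.21 over the 10 genes and 0.02 over all tested genes. Both comparisons share the WT libraries. Between the knockouts, Dicer/Dnmt1 KO was higher than Dnmt1 KO for 3 genes (Smc1b, Stag3 and Hormad1) and lower for 5 (Sycp1, Sycp2, Syce1, Sycp3 and Syce2), where 36.3% of all tested genes were called, 16.9% higher and 19.4% lower. The median log2 difference was -0.40 over the 10 genes and -0.01 over all tested genes. With WT number 4 left out, 7, 7 and 8 of the 10 genes were called in the 3 comparisons in this order, the call lost being Sycp2 in Dicer/Dnmt1 KO against WT.

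**Figure D1:**
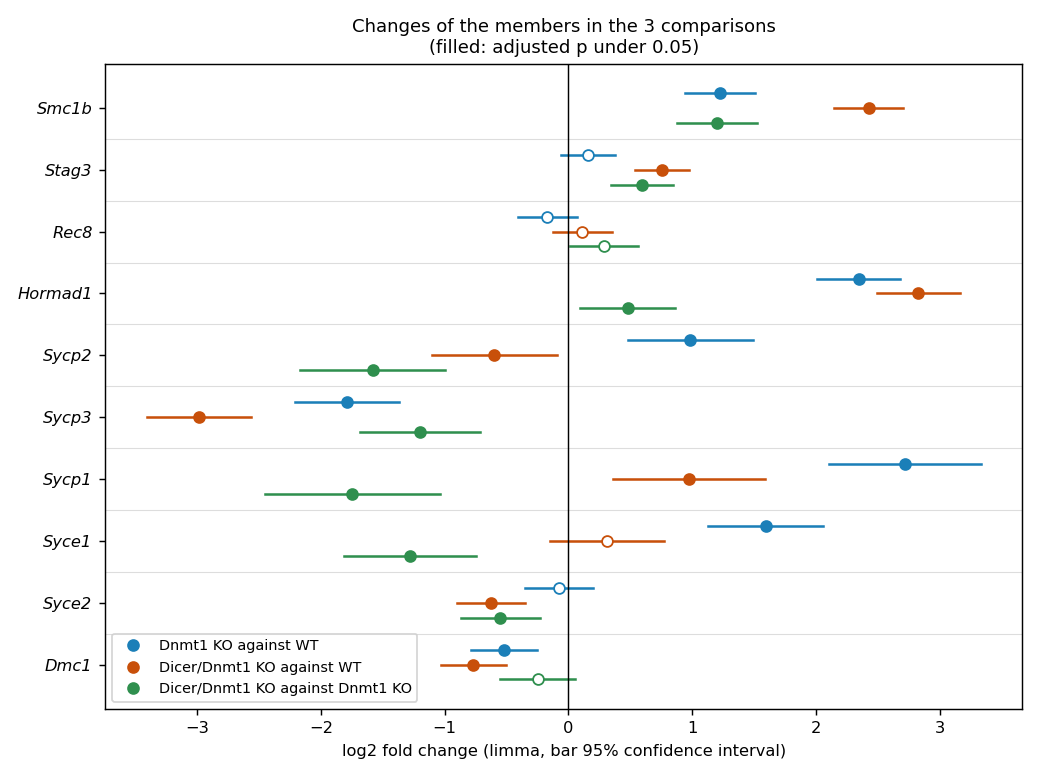
Log2 fold change (horizontal axis, limma) of the 10 genes in the 3 comparisons, with bars for the 95% confidence interval and filled symbols for an adjusted p under 0.05. Smc1b and Hormad1 lie above 0 in all 3 comparisons and Sycp3 below 0 in all 3, while Sycp1, Sycp2 and Syce1 are higher in Dnmt1 KO than in WT and lower in Dicer/Dnmt1 KO than in Dnmt1 KO.

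**Figure D2:**
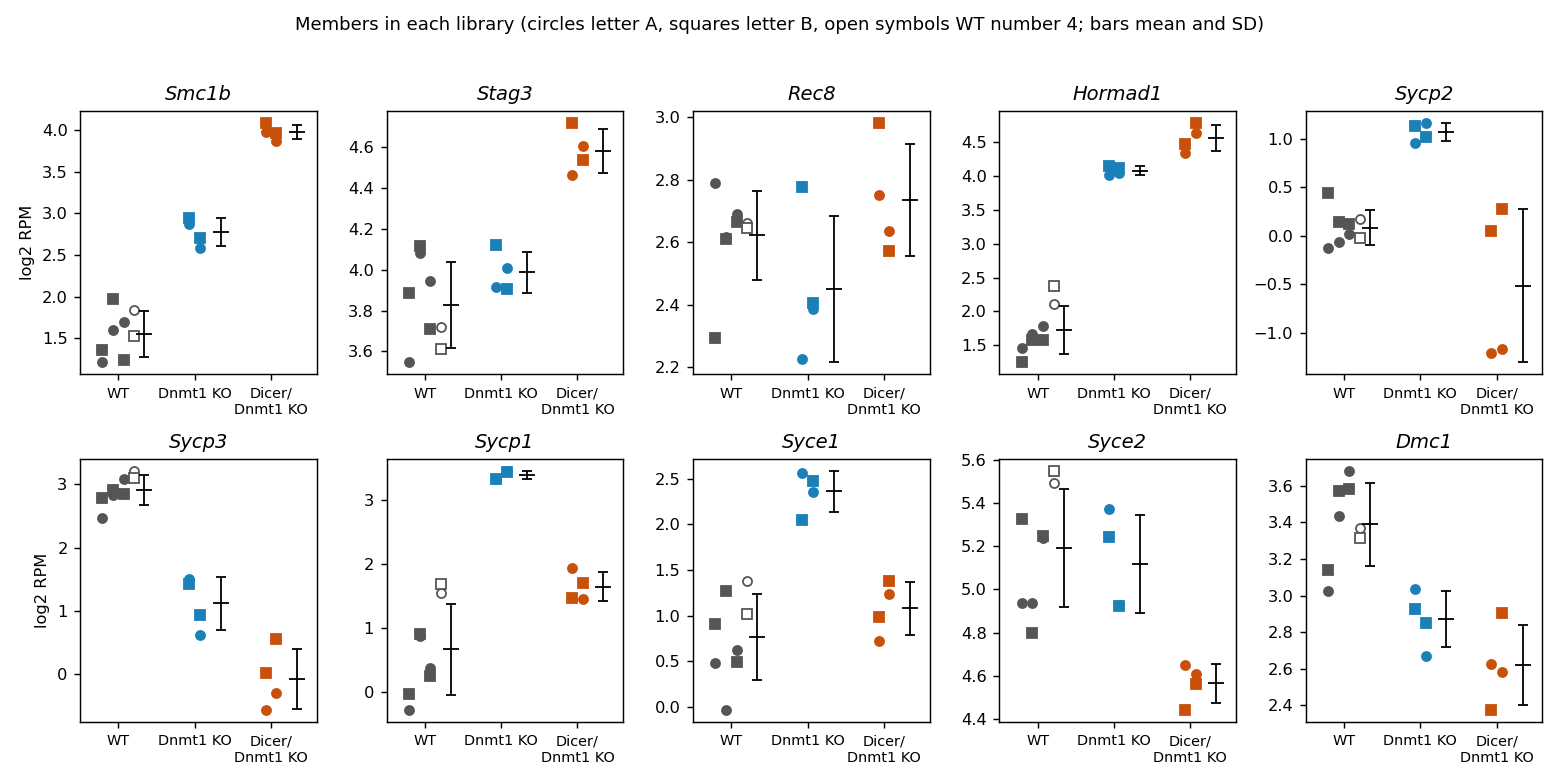
Level of each gene in every library in log2 RPM (vertical axis, scaled separately for each gene) by genotype, with circles for letter A, squares for letter B, open symbols for WT number 4 and black bars for the mean and SD. For Sycp1 the 2 open WT symbols at 1.55 and 1.68 lie among the Dicer/Dnmt1 KO libraries at 1.46 to 1.94, and for Sycp2 the 2 letter A libraries of Dicer/Dnmt1 KO lie at -1.21 and -1.17, below both letter B libraries.

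Of the meiotic cohesin genes, Smc1b rose stepwise across the genotypes, Stag3 was higher only where Dicer1 was also deleted by these calls, and Rec8 passed no test. Smc1b encodes the meiosis-specific SMC subunit of cohesin (NCBIM37, chromosome 15, 84895121 to 84962387, minus strand). Its WT levels ranged from 1.21 to 1.97 log2 RPM with a median of 1.56. In Dnmt1 KO the libraries 1A, 1B, 2A and 2B had 2.88, 2.94, 2.58 and 2.70 log2 RPM, and in Dicer/Dnmt1 KO they had 3.98, 4.09, 3.88 and 3.97. The 3 genotypes did not overlap, and the lowest library of each knockout stood above the highest of the genotype before it. Such separation was common, for Smc1b as for the genes below. It held for 23.2% of all tested genes in Dnmt1 KO against WT, 41.4% in Dicer/Dnmt1 KO against WT and 43.2% between the knockouts. The fold change was 2.33 in Dnmt1 KO (log2 1.22, SE 0.13, limma adjusted p = 1.56e-06), 5.37 in Dicer/Dnmt1 KO (log2 2.43, SE 0.13, limma adjusted p = 1.44e-10) and 2.30 between the knockouts (log2 1.20, SE 0.15, limma adjusted p = 1.74e-05). All 3 calls on Smc1b were kept in each of the 35 other settings tried.

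The promoter of Smc1b is shown because the gene rose in both knockouts and its window had the highest CpG ratio of the set. The sequence is the 250 bases before the RefSeq start (build GRCm38.p6, which differs from the build of the expression files), 5′ to 3′ on the strand of the gene, with matches to GCGGGA or its reverse complement in capitals. Windows of 300 bases, from 250 before to 50 after the start, were searched on both strands for CACGTG, the E-box hexamer, for GCGGGA, an E2F-type core, and for CGCG. Both hexamers are known from promoters bound by repressor complexes of germline genes, and a match here is a description of letters only.
Smc1b, chr15:85131958-85132207, minus strand: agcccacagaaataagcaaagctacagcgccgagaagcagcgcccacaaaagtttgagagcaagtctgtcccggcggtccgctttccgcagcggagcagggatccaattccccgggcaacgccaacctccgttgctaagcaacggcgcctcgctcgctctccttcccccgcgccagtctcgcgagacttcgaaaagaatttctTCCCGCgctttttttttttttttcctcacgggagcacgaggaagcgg
The Smc1b window had 29 CpG and an observed to expected CpG ratio of 1.08, beside a median of 0.38 over 32851 promoter windows. Its match to GCGGGA begins 47 bases before the start, and it held no CACGTG.

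Stag3 encodes the meiotic stromalin subunit of cohesin (chromosome 5, 138721468 to 138753621, plus strand). It had WT levels of 3.55 to 4.12 log2 RPM (median 3.80). Dnmt1 KO libraries had 3.92, 4.12, 4.01 and 3.90 log2 RPM, and Dicer/Dnmt1 KO libraries 4.46, 4.72, 4.61 and 4.54. Dnmt1 KO lay within the range of WT apart from 1 library just above it, whereas every Dicer/Dnmt1 KO library exceeded all others. The log2 difference was 0.16 in Dnmt1 KO (95% confidence interval -0.06 to 0.38, limma adjusted p = 0.231), 0.75 in Dicer/Dnmt1 KO (SE 0.10, limma adjusted p = 8.56e-06) and 0.59 between the knockouts (SE 0.12, limma adjusted p = 0.000997). The call between the knockouts was lost with letter A only (limma adjusted p = 0.0905) and with letter B only (0.0881). The Stag3 window held 30 CpG, 1 match to CACGTG and 1 to GCGGGA, and its CpG ratio of 1.06 was above that of 96.9% of all windows.

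Rec8 encodes the meiotic kleisin that closes the cohesin ring (chromosome 14, 56236874 to 56244232, plus strand). Its WT levels were 2.30 to 2.79 log2 RPM with a median of 2.65, its Dnmt1 KO levels 2.23, 2.78, 2.39 and 2.41, and its Dicer/Dnmt1 KO levels 2.75, 2.98, 2.64 and 2.57. All genotypes overlapped. The log2 difference was -0.17 in Dnmt1 KO (95% confidence interval -0.41 to 0.07, limma adjusted p = 0.238), 0.11 in Dicer/Dnmt1 KO (-0.12 to 0.35, limma adjusted p = 0.392) and 0.28 between the knockouts (0.01 to 0.56, limma adjusted p = 0.0958). The difference between the knockouts was called when Dnmt1 KO 1B, the highest Dnmt1 KO library, was left out (log2 0.39, limma adjusted p = 0.0259). It was also called when values were scaled to reads in genes (log2 0.34, limma adjusted p = 0.0478). The same held with the transcript length trend removed (log2 0.39, limma adjusted p = 0.0251).

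Cohesin in dividing cells uses the counterparts Smc1a, Stag1, Stag2 and Rad21, and their levels put the meiotic subunits in proportion when both are divided by transcript length. Smc1b was at 0.739 ± 0.143 RPM per kb (SD, n = 8) in WT, at 1.70 ± 0.19 (n = 4) in Dnmt1 KO and at 3.91 ± 0.24 (n = 4) in Dicer/Dnmt1 KO, while Smc1a was at 18.4 ± 0.927, 16.6 ± 1.74 and 16.7 ± 0.724 RPM per kb. The level of Smc1b was thus 3.14% to 5.4% of that of Smc1a in WT, 10% to 10.4% in Dnmt1 KO and 22.1% to 26.4% in Dicer/Dnmt1 KO. Smc1a itself did not pass the test in any comparison, with log2 differences of -0.15 (limma adjusted p = 0.0846) and -0.14 (limma adjusted p = 0.0929) against WT. Stag3 amounted to 7.24% to 11.5% of Stag1 and Stag2 together in WT, to 11% to 12.3% in Dnmt1 KO and to 17.3% to 21.7% in Dicer/Dnmt1 KO. Part of this shift in proportion was in the counterpart, since Stag2 fell by 0.44 log2 in Dnmt1 KO (SE 0.09, limma adjusted p = 0.000592) and by 0.69 log2 in Dicer/Dnmt1 KO (SE 0.09, limma adjusted p = 3.28e-06). Rec8 stayed at 5.26% to 7.78% of Rad21 in WT, 5.98% to 7.63% in Dnmt1 KO and 5.28% to 6.2% in Dicer/Dnmt1 KO, ranges that overlap.

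**Figure D3:**
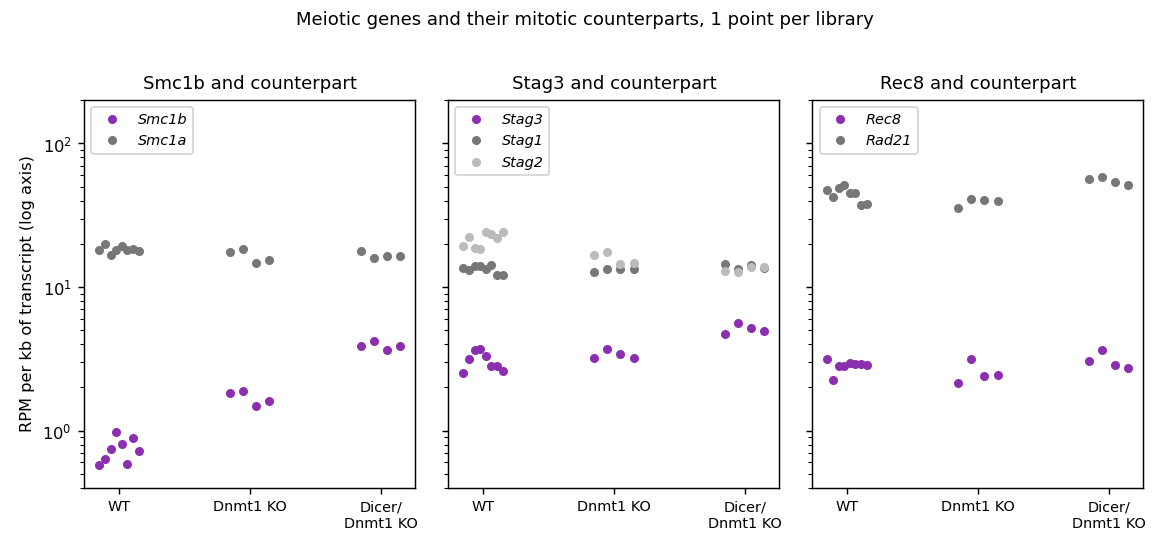
Level per kb of the longest transcript (vertical log axis, RPM per kb) of 3 meiotic cohesin genes (purple) and their mitotic counterparts (grey), with 1 point per library. The purple points of Smc1b rise from 0.739 RPM per kb on average in WT to 3.91 in Dicer/Dnmt1 KO beneath a nearly level Smc1a, and Rec8 lies at 5.26% to 7.78% of Rad21 in WT and at 5.28% to 6.2% in Dicer/Dnmt1 KO.

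Among the axis genes, Hormad1 rose and Sycp3 fell in both knockouts, with the largest changes of the 3 axis genes in each. Hormad1 encodes a HORMA domain protein of unsynapsed axes (chromosome 3, 95363599 to 95391593, plus strand). Its WT levels were 1.25 to 2.37 log2 RPM with a median of 1.63. Dnmt1 KO libraries had 4.00, 4.14, 4.04 and 4.12 log2 RPM, and Dicer/Dnmt1 KO libraries 4.33, 4.47, 4.63 and 4.78. The knockouts lay far above WT and did not overlap each other. Hormad1 was 5.09-fold higher in Dnmt1 KO (log2 2.35, SE 0.16, limma adjusted p = 5.2e-09) and 7.09-fold higher in Dicer/Dnmt1 KO (log2 2.83, SE 0.16, limma adjusted p = 1.8e-10). The step between the knockouts was 0.48 log2 (SE 0.18, limma adjusted p = 0.0495). That call was lost in 18 of 35 other settings, among them leaving out any 1 Dnmt1 KO library, Dicer/Dnmt1 KO 1B, 2A or 2B, or WT 2A, 2B, 3A or 3B, with an adjusted p of 0.0137 to 0.131 when single libraries were left out. Without WT number 4 it was kept (limma adjusted p = 0.0032).

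Sycp3 encodes a core protein of the lateral element (chromosome 10, 87922314 to 87935981, plus strand), and it fell in both knockouts. WT libraries had 2.46 to 3.22 log2 RPM with a median of 2.88. Dnmt1 KO libraries had 1.50, 1.43, 0.62 and 0.93 log2 RPM and Dicer/Dnmt1 KO libraries -0.57, 0.01, -0.30 and 0.55. The genotypes were separate throughout, in the reverse order of Hormad1. Sycp3 was 3.45-fold lower in Dnmt1 KO (log2 -1.79, SE 0.20, limma adjusted p = 1.97e-06), 7.92-fold lower in Dicer/Dnmt1 KO (log2 -2.99, SE 0.20, limma adjusted p = 1.61e-09) and 2.30-fold lower in Dicer/Dnmt1 KO than in Dnmt1 KO (log2 -1.20, SE 0.23, limma adjusted p = 0.000678). Both falls against WT were kept in all 35 other settings, while the call between the knockouts was lost with letter B only (limma adjusted p = 0.0708). The gene lies wholly within Chpt1 on the opposite strand, and 660 exon bases are shared. The methods describe stranded libraries, and sense and antisense reads over genes were counted for an analysis of antisense transcription. The sources used here do not state whether strand was used for the gene levels. Chpt1 was not called in Dnmt1 KO (log2 0.18, limma adjusted p = 0.265) and was called higher in Dicer/Dnmt1 KO (log2 0.33, limma adjusted p = 0.0323). Whether reads of Chpt1 were counted for Sycp3 was not tested.

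The promoters of Hormad1 and Sycp3 are shown together because these genes moved in opposite directions while their windows share the same letters. Each holds 2 matches to CACGTG and 1 to GCGGGA, which are in capitals in these 250 bases before each RefSeq start (GRCm38.p6).
Hormad1, chr3:95559427-95559676, plus strand: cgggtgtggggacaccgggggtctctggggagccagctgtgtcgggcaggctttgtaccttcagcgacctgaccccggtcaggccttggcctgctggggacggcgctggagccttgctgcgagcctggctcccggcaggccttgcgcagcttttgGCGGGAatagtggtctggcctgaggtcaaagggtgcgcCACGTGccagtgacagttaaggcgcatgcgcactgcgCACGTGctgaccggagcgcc
Sycp3, chr10:88459337-88459586, plus strand: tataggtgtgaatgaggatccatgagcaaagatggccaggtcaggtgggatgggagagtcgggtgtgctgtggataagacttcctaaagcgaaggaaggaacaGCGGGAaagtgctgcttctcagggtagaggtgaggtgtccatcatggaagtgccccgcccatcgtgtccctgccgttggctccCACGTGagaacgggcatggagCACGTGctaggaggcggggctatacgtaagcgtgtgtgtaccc
The E-box matches begin 57 and 20 bases before the start in Hormad1 and 64 and 43 bases before it in Sycp3. The CpG ratio was 0.71 for Hormad1, with 24 CpG, and 0.67 for Sycp3, with 15. Among the 10 genes, 5 had CACGTG, 8 had GCGGGA and 5 had both in 1 window, beside 7.15%, 20% and 1.99% of all windows. CGCG was found for 7 of the 10 genes, and in 38% of all windows. The 5 genes with both hexamers were Hormad1, Sycp3, Sycp1, Stag3 and Syce2 (at 1 of its 2 annotated starts), among which are genes that rose and genes that fell. Whether these letters go with the direction of change was not tested.

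Sycp2 encodes the lateral element partner of SYCP3 (chromosome 2, 178079998 to 178142390, minus strand), and its RNA was near 1 RPM in WT. WT libraries had -0.12 to 0.44 log2 RPM (median 0.06), Dnmt1 KO libraries 0.96, 1.13, 1.16 and 1.02, and Dicer/Dnmt1 KO libraries -1.21, 0.05, -1.17 and 0.27. All Dnmt1 KO libraries were above all others, and Dicer/Dnmt1 KO was divided by letter. The rise in Dnmt1 KO was 0.98 log2 (SE 0.24, limma adjusted p = 0.00329), and Dicer/Dnmt1 KO was lower than Dnmt1 KO by 1.58 log2 (log2 -1.58, SE 0.28, limma adjusted p = 0.000318). The rise was lost with quantile normalization (log2 0.76, limma adjusted p = 0.0719). The call between the knockouts was lost with letter B only (log2 -0.91, limma adjusted p = 0.0962). With letter A only it was kept (log2 -2.25, limma adjusted p = 0.00467). The difference of -0.60 log2 between Dicer/Dnmt1 KO and WT (SE 0.24, limma adjusted p = 0.0388) was lost in 17 of 35 other settings. It rested on letter A: the difference was -1.19 log2 (limma adjusted p = 0.00809) with letter A libraries only and -0.01 (limma adjusted p = 0.988) with letter B only, and leaving out Dicer/Dnmt1 KO 1A or 2A gave -0.36 (limma adjusted p = 0.202) or -0.38 (limma adjusted p = 0.189). It was also lost without WT 1B, 2B, 3B or 4A, with differences of -0.59 to -0.55 log2 and adjusted p-values of 0.0526 to 0.0648 in limma. The reads behind these levels were few. The 2 letter A libraries had 16 reads (95% exact Poisson interval 9.1 to 26) and 17 reads (9.9 to 27.2), and the 2 letter B libraries 33 reads (22.7 to 46.3) and 38 reads (26.9 to 52.2). Sycp2 was the one gene besides Syce1 with neither hexamer, and its CpG ratio of 0.36 was the lowest of the 10.

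Among the genes of the central region, Sycp1 and Syce1 rose in Dnmt1 KO and were much lower when Dicer1 was also deleted, whereas Syce2 fell only in the double knockout by these calls. Sycp1 encodes the transverse filament protein (chromosome 3, 102622422 to 102740023, minus strand). Its WT levels ranged from -0.28 to 1.68 log2 RPM with a median of 0.62, the widest WT range of the 10 genes. Dnmt1 KO libraries had 3.33, 3.33, 3.46 and 3.43 log2 RPM, and Dicer/Dnmt1 KO libraries 1.94, 1.47, 1.46 and 1.70. Dnmt1 KO was above every other library, while Dicer/Dnmt1 KO overlapped WT through WT 4A and WT 4B alone, the other WT libraries reaching no higher than 0.91. Sycp1 was 6.59-fold higher in Dnmt1 KO (log2 2.72, SE 0.29, limma adjusted p = 1.18e-06) and 1.97-fold higher in Dicer/Dnmt1 KO (log2 0.97, SE 0.29, limma adjusted p = 0.00773). Between the knockouts it was 3.36-fold lower in the double knockout (log2 -1.75, SE 0.34, limma adjusted p = 0.000678). Without WT number 4 the 2 rises were 3.04 log2 (limma adjusted p = 2.5e-09) and 1.29 log2 (limma adjusted p = 3.01e-05). With A and B averaged to 1 value per number, the rise of Sycp1 in Dicer/Dnmt1 KO did not pass the test (limma adjusted p = 0.0735). It was also lost with letter A only (0.0756) and with letter B only (0.101). The call on Sycp1 between the knockouts was lost with letter A only (limma adjusted p = 0.0611).

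Syce1 encodes a central element protein (chromosome 7, 147963128 to 147973753, minus strand) with the same order of genotypes. It had -0.03 to 1.38 log2 RPM in WT (median 0.76), 2.57, 2.05, 2.35 and 2.48 in Dnmt1 KO and 0.72, 0.99, 1.23 and 1.38 in Dicer/Dnmt1 KO. Dnmt1 KO stood alone above the rest, and Dicer/Dnmt1 KO lay within WT or at its upper edge. The fold change was 3.02 in Dnmt1 KO (log2 1.59, SE 0.22, limma adjusted p = 2.04e-05). In Dicer/Dnmt1 KO the log2 difference from WT was 0.31 (95% confidence interval -0.15 to 0.78, limma adjusted p = 0.223), and between the knockouts it was -1.28 (SE 0.25, limma adjusted p = 0.000876). The difference from WT was called with the transcript length trend removed (log2 0.54, limma adjusted p = 0.0308). Without WT number 4 it was not called (log2 0.46, limma adjusted p = 0.0663). The call between the knockouts was lost with letter A only (limma adjusted p = 0.0542) and with letter B only (0.0662). WT 2A and WT 2B, with 39 and 103 reads, were the farthest apart of the library pairs of 1 number for Syce1. The promoters of Sycp1 and Syce1 are shown because both genes were highest in Dnmt1 KO, as 250 bases before each RefSeq start (GRCm38.p6) with matches to either hexamer in capitals.
Sycp1, chr3:102936101-102936350, minus strand: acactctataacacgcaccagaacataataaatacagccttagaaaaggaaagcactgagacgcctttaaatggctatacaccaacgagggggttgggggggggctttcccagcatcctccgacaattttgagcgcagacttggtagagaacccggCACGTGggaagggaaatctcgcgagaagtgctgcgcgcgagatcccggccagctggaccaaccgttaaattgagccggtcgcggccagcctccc
Syce1, chr7:140787855-140788104, minus strand: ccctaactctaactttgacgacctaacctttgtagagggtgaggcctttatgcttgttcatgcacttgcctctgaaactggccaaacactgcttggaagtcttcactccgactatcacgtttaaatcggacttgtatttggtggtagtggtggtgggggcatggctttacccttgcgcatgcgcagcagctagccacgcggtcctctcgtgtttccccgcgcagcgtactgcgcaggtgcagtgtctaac
Sycp1 has 1 match to CACGTG, which begins 94 bases before the start, and a match to GCGGGA that lies after the start and so beyond the bases shown. Syce1 has neither. Their CpG ratios were 0.87 and 0.62. Whether letters or CpG go with the course of these genes was not tested.

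Syce2 encodes another central element protein (chromosome 8, 87396010 to 87412120, plus strand) and had the highest level per kb of the 10 genes in WT. Its WT levels were 4.80 to 5.55 log2 RPM with a median of 5.24, and its Dnmt1 KO levels were 5.37, 5.24, 4.93 and 4.92. Dicer/Dnmt1 KO libraries had 4.65, 4.44, 4.61 and 4.56 log2 RPM, below every other library. The log2 difference was -0.07 in Dnmt1 KO (95% confidence interval -0.35 to 0.20, limma adjusted p = 0.675), -0.62 in Dicer/Dnmt1 KO (SE 0.13, limma adjusted p = 0.00053) and -0.55 between the knockouts (SE 0.15, limma adjusted p = 0.00889). The last call was lost with A and B averaged (limma adjusted p = 0.12), with letter A only (0.165) and with letter B only (0.146), and the call against WT with letter A only (0.0582). Syce2 overlaps 1829 bases of Gcdh on the opposite strand with no shared exon base, and Gcdh fell in Dicer/Dnmt1 KO (log2 -0.66, limma adjusted p = 0.000174) and, where Syce2 was not called, in Dnmt1 KO (log2 -0.39, limma adjusted p = 0.0175). Between the knockouts, where Syce2 was called, Gcdh was not (log2 -0.28, limma adjusted p = 0.135). Whether reads of one gene were counted for the other was not tested.

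Dmc1 encodes the meiotic recombinase that carries out strand exchange at breaks (chromosome 15, 79391930 to 79435529, minus strand). WT levels were 3.03 to 3.68 log2 RPM with a median of 3.40. Dnmt1 KO libraries had 3.04, 2.93, 2.67 and 2.85 log2 RPM, and Dicer/Dnmt1 KO libraries 2.63, 2.38, 2.58 and 2.91. Dnmt1 KO touched the lower edge of WT in 1 library, and Dicer/Dnmt1 KO lay below all of WT. Dmc1 fell by 0.52 log2 in Dnmt1 KO (log2 -0.52, SE 0.13, limma adjusted p = 0.003) and by 0.77 log2 in Dicer/Dnmt1 KO (log2 -0.77, SE 0.13, limma adjusted p = 5.25e-05), while the difference between the knockouts was -0.25 (95% confidence interval -0.55 to 0.06, limma adjusted p = 0.191). With A and B averaged the fall in Dnmt1 KO did not pass the test (limma adjusted p = 0.0654). It was also lost with letter A only (limma adjusted p = 0.102) and with letter B only (0.111).

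The order of the 10 genes by level per kb was different in each genotype. In WT it ran from Syce2 at 22 ± 4.11 RPM per kb (SD, n = 8) through Sycp3 at 6.49 ± 1.03 and Dmc1 at 4.84 ± 0.74 to Sycp1 at 0.514 ± 0.258 and Sycp2 at 0.187 ± 0.0242. The libraries of Sycp3 and Dmc1 overlapped, as did each pair of neighbours from Stag3 down to Sycp1, so only Syce2, the pair of Sycp3 and Dmc1, and Sycp2 were set apart from their neighbours. In Dnmt1 KO Syce2 (20.8 ± 3.27, n = 4) was followed by Hormad1 (11.2 ± 0.491), neighbours from Syce1 to Smc1b overlapped, and Sycp2 was last at 0.367 ± 0.0238. In Dicer/Dnmt1 KO Hormad1 (15.7 ± 2.09, n = 4) and Syce2 (14.1 ± 0.856) overlapped at the top, Stag3 (5.14 ± 0.388) and Smc1b (3.91 ± 0.24) came next and were separate, and Sycp3 had dropped to 0.846 ± 0.294.

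Over the 16 libraries, the log2 levels of Hormad1 and Smc1b had a Pearson r of 0.93, those of Sycp1 and Syce1 0.87, and those of Sycp3 and Dmc1 0.91, whereas Sycp3 and Smc1b had an r of -0.92. Rec8 had an r between -0.52 (Syce1) and 0.30 (Stag3) with the other genes. These values describe the same 16 libraries in 3 genotypes, share their depth, and follow mainly the genotype means. The 5 genes whose levels most resembled the mean standardised profile of the 10 were F2rl1 (r = 0.92), Nlrp14 (0.89), Gm9631 (0.88), Zfp600 (0.88) and Slc44a4 (0.88), over 16 libraries. Nlrp14 had a mean of -0.49 ± 0.38 log2 RPM in WT, 1.20 ± 0.21 in Dnmt1 KO libraries and -0.15 ± 0.31 in Dicer/Dnmt1 KO libraries. It thus passed the filter mainly through Dnmt1 KO libraries, and its likeness to the profile does not stand apart from the filter. The profile itself is an average of opposite courses, since single genes of the 10 had an r between -0.24 (Sycp3) and 0.84 (Sycp1) with it.

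Other genes of the axis and synaptonemal complex were mostly too low to test. Of 8 listed, Syce3, Tex12, Rad21l and Sycp2l did not pass the filter. Of the 4 tested, 2 rose and 0 fell in Dnmt1 KO against WT, 1 rose and 1 fell in Dicer/Dnmt1 KO against WT, and 0 rose and 2 fell between the knockouts. The 50% called in each comparison stands beside 41%, 61.9% and 36.3% of all tested genes in this order. Their median log2 fold changes were 0.47, 0.04 and -0.48, beside 0.04, 0.02 and -0.01 over all tested genes. Hormad2, the paralogue of Hormad1, had 3 to 23 reads per WT library, 96 to 156 per Dnmt1 KO library and 63 to 131 per Dicer/Dnmt1 KO library. It rose in both knockouts, with log2 fold changes of 3.43 (SE 0.37, limma adjusted p = 1.38e-06) and 3.05 (SE 0.37, limma adjusted p = 2.17e-06), and between the knockouts -0.38 (95% confidence interval -1.28 to 0.52, limma adjusted p = 0.516). Hormad2 was at most 0.685 RPM in WT, so it passed the filter only through knockout libraries. Its rise, and its place in the counts of this list, therefore do not stand apart from the filter. 4930447C04Rik, a central element gene, rose in Dnmt1 KO (log2 0.78, limma adjusted p = 5.44e-06) and was lower in Dicer/Dnmt1 KO than in Dnmt1 KO (log2 -0.57, limma adjusted p = 0.000696). Ccdc36, an axis gene needed for breaks, fell in Dicer/Dnmt1 KO against WT (log2 -0.67, limma adjusted p = 0.00765) and against Dnmt1 KO (log2 -0.82, limma adjusted p = 0.0103). Tex12, a central element partner of Syce2, had 0 to 3 reads in WT, 9 to 17 in Dnmt1 KO and 0 to 5 in Dicer/Dnmt1 KO.

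Of 21 listed genes of break formation and recombination, 19 were in the table and 14 were tested. In Dnmt1 KO against WT 7 rose and 4 fell, in Dicer/Dnmt1 KO against WT 3 rose and 6 fell, and between the knockouts 0 rose and 5 fell. The shares called were 78.6%, 64.3% and 35.7%, of which the last 2 are near the 61.9% and 36.3% of all tested genes, and the first stands beside 41%. The medians were 0.22, -0.36 and -0.19 log2. Tex15, a gene of meiotic recombination and germline silencing, rose in Dnmt1 KO (log2 0.76, limma adjusted p = 8.27e-06) and fell in Dicer/Dnmt1 KO (log2 -0.84, limma adjusted p = 1.19e-06), a difference between the knockouts of -1.59 log2 (limma adjusted p = 3.54e-08). Hfm1, a crossover helicase, fell in both (log2 -0.97, limma adjusted p = 0.00253, and log2 -1.54, limma adjusted p = 1.99e-05). Cntd1, a cyclin-like crossover gene, also fell in both (log2 -1.08, limma adjusted p = 0.00134, and log2 -1.26, limma adjusted p = 0.000191). Hsf2bp, which brings recombinases to breaks through BRCA2, rose in Dnmt1 KO (log2 0.62, limma adjusted p = 0.000382) and in Dicer/Dnmt1 KO (log2 0.86, limma adjusted p = 7.77e-06), and did not pass the test between the knockouts (log2 0.23, limma adjusted p = 0.186). Spo11, which encodes the enzyme that makes the breaks, had 0 to 4 reads in every library.

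Of 10 genes of meiotic entry and telomere attachment, 8 were in the table and 6 tested, of which 3 rose and 2 fell against WT in each knockout and 0 were called between the knockouts. The share called was 83.3% against WT in each knockout, beside 41% and 61.9% of all tested genes. In that last comparison 0 of the 6 had an unadjusted p under 0.05, limma's voom on recovered reads called 1, and Fkbp6 had the largest difference of the 6, -0.93 log2 (limma adjusted p = 0.249). The medians of the list were 0.76, 0.66 and 0.03 log2. The 3 that rose were Fkbp6, Stra8 and Dazl. Fkbp6, a germline chaperone gene, had 0 to 5 reads per WT library, 126 to 192 per Dnmt1 KO library and 72 to 92 per Dicer/Dnmt1 KO library, so its fold change depends on how 0 reads are written and is not given. Fkbp6 also passed the filter only through knockout libraries. Stra8, the retinoic acid target that starts the meiotic programme, rose by 2.26 log2 (SE 0.41, limma adjusted p = 0.00027) and 2.57 log2 (SE 0.41, limma adjusted p = 3.78e-05). Dazl, a germ cell RNA-binding protein gene, rose by 1.69 log2 (SE 0.24, limma adjusted p = 2.41e-05) and 1.39 log2 (SE 0.24, limma adjusted p = 7.92e-05).

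Of 15 mitotic counterparts and general cohesin genes, all tested, 0 rose and 5 fell in Dnmt1 KO, 2 rose and 4 fell in Dicer/Dnmt1 KO, and 2 rose and 2 fell between the knockouts. The shares called, 33.3%, 40% and 26.7%, were below the 41%, 61.9% and 36.3% of all tested genes. The median log2 fold change of this list was -0.01 in Dnmt1 KO, 0.0047 in Dicer/Dnmt1 KO and 0.02 between the knockouts. Fold changes in this list ran from -0.56 (Hdac8) to 0.16 in Dnmt1 KO and from -0.84 (Esco2) to 0.39 in Dicer/Dnmt1 KO, a narrower span than that of the 10 meiotic genes, which ran from -1.79 to 2.72 and from -2.99 to 2.83. Rad21, the mitotic kleisin, was higher in Dicer/Dnmt1 KO than in WT (log2 0.31, limma adjusted p = 0.00486) and than in Dnmt1 KO (log2 0.49, limma adjusted p = 0.00106).

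Of 17 genes for known repressors of germline genes, 9 rose and 1 fell in Dnmt1 KO, 6 rose and 5 fell in Dicer/Dnmt1 KO, and 0 rose and 9 fell between the knockouts, with medians of 0.22, -0.14 and -0.27 log2. The shares called were 58.8%, 64.7% and 52.9%, beside 41%, 61.9% and 36.3% of all tested genes, so that the second is near that of all genes. Dnmt3l, the cofactor of the de novo methyltransferases, rose in Dnmt1 KO by 1.16 log2 (SE 0.12, limma adjusted p = 7.37e-07) and was lower in Dicer/Dnmt1 KO than in Dnmt1 KO (log2 -1.34, SE 0.14, limma adjusted p = 1.96e-06). Dnmt3b took the same course (log2 0.67, limma adjusted p = 0.000796, and log2 -0.99, limma adjusted p = 0.000144). E2f6 and Tfdp1, whose proteins form part of a repressor that binds E2F-type sites, fell in Dicer/Dnmt1 KO against WT by 0.47 log2 (log2 -0.47, limma adjusted p = 0.000439) and 0.49 log2 (log2 -0.49, limma adjusted p = 2.18e-06). Cbx3, which encodes a heterochromatin protein, fell by 0.68 log2 there (log2 -0.68, limma adjusted p = 7.16e-05).

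**Figure D4:**
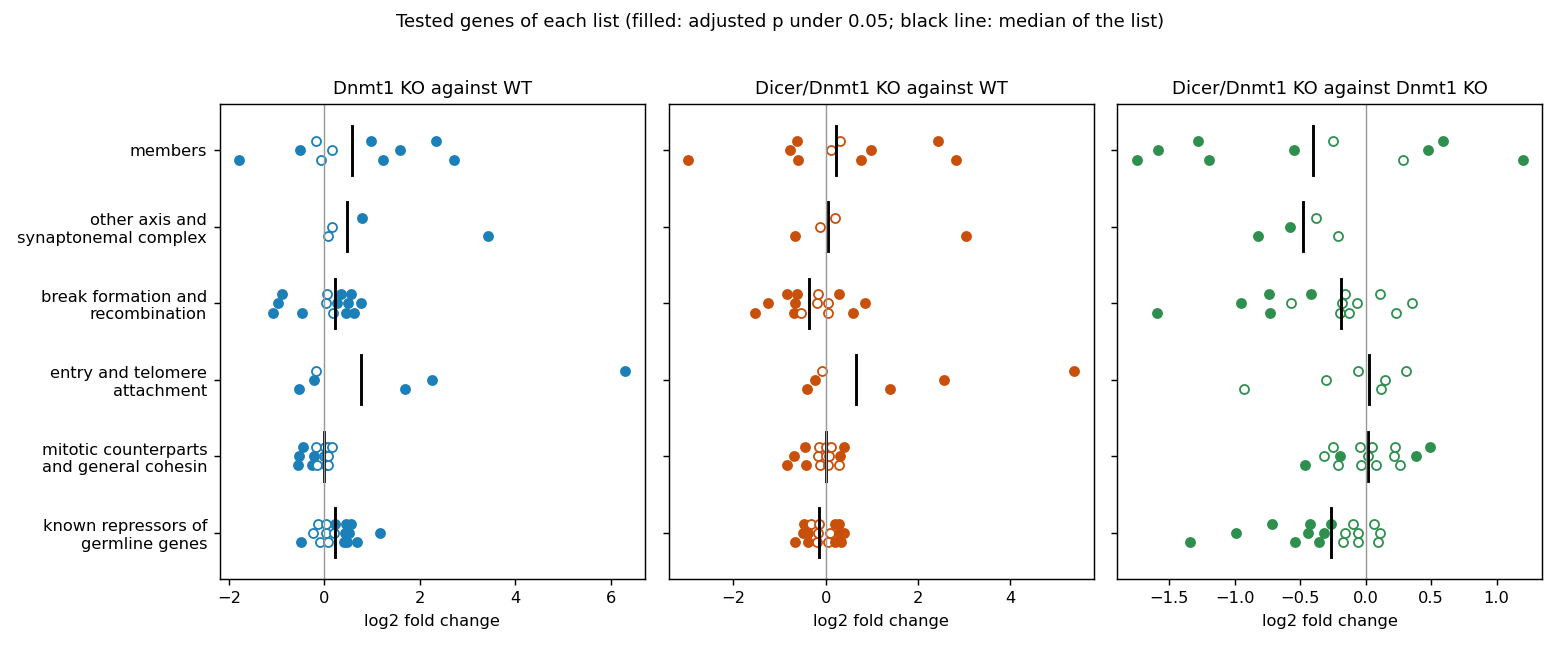
Log2 fold change (horizontal axis, limma, scaled separately in each panel) of every tested gene in the 10 meiotic genes and 5 other lists, with filled symbols for an adjusted p under 0.05 and a black line at the median of each list. The 10 genes spread to both sides of 0 in each comparison, between -2.99 and 2.83 in Dicer/Dnmt1 KO against WT, while mitotic and general cohesin genes stay between -0.84 and 0.39 there.

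WT 4A and WT 4B, the WT libraries with least Dnmt1 and least Dicer1 RNA, were both above every other WT library for 4 of the 10 genes. They had 1.55 and 1.68 log2 RPM for Sycp1 beside -0.28 to 0.91 in the other WT libraries, and 2.11 and 2.37 for Hormad1 beside 1.25 to 1.79. For Sycp3 they had 3.22 and 3.11 beside 2.46 to 3.09, and for Syce2 5.49 and 5.55 beside 4.80 to 5.33. For Syce1, WT 4A at 1.38 was the highest WT library and WT 4B at 1.02 lay below WT 2B at 1.27. For the other 5 genes both lay within the range of the other WT libraries. Their Sycp1 and Hormad1 levels were thus shifted towards Dnmt1 KO, and their Sycp3 levels away from it. The part of the lower Dnmt1 and Dicer1 levels in these values was not tested.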

How the data were processed

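Ribosome-depleted RNA of 16 mouse ESC libraries was analysed. The authors trimmed reads with Trim Galore 0.3.5, aligned them to NCBIM37 with TopHat2 2.0.11, removed poorly mapped reads and counted genes in SeqMonk. The labels also name GRCm38, but the coordinates of 26068 genes were those of NCBIM37 gene models. The deposited values are log2 RPM per gene and library, and per the methods the authors called changes with DESeq2 and an intensity difference test. Setting the values back gave whole reads for 100% of them (tolerance 0.01), with a gene of 0 reads written as 0.9 read, and limma's voom on these reads called 5319, 8000 and 4715 genes in the 3 comparisons. A further 35 value columns of the table were not used. Gene models came from GENCODE M1 (26127 of 26127 genes matched), promoters from RefSeq.

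Genes above 1 RPM in at least 4 libraries (12892) were fitted in limma 3.58.1 (R 4.3.3) with 1 mean per genotype over all 16 libraries, an intensity trend and Benjamini-Hochberg adjustment over all tested genes, after tests on simulated data. Every adjusted p-value is from this fit unless a setting is named. The 10 genes, the lists and the rule for naming genes (at most the 3 called genes with the largest change per list and comparison, and the 5 most similar profiles) were chosen with earlier results of these data known. Genes named as examples outside that rule (Chpt1, Gcdh, Smc1a, Tex12 and Spo11) were chosen for their relation to the 10 genes or after their values were seen. Alternatives covered pseudocount, filter, normalization, replicate unit, WT libraries, replicate block, voom on recovered reads, a 2-fold minimum and each library left out. WT number 4 left out and removal of the transcript length trend were added after the data had been seen. One item of the gene lists is not reported here.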

Additional observations from a re-analysis of the deposited data

Results flagged for a closer look

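One value among 36 groups of libraries (10 meiotic genes, Dnmt1 and Dicer1 in 3 genotypes) lay far from the rest of its group. Rec8 was at 2.30 log2 RPM (181 reads) in WT 1B, the lowest of 8 WT libraries, and the next lowest was at 2.61. The gap was 0.639 of the whole WT range, above the critical value of 0.526 in Dixon's test at the 95% level. Chance flags about 1 in 20 groups, so that 1 flag in 36 groups is no pattern. Without this library the difference of Rec8 between Dnmt1 KO and WT was -0.22 log2 (limma adjusted p = 0.114), beside -0.17 with it.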

How the results depend on the processing

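Over 35 other settings, none reversed a called direction among the 10 genes. Of 1050 values (30 results, 35 settings each), 984 kept their side of the threshold, 61 lost a call and 5 gained one. Leaving out 1 library gave 7, 7 to 8, and 7 to 8 called of the 10 in Dnmt1 KO against WT, Dicer/Dnmt1 KO against WT, and Dicer/Dnmt1 KO against Dnmt1 KO, and 27 to 34, 29 to 35, and 16 to 22 called genes over the 5 pathway lists (33, 33 and 20 with all libraries). The pathway counts were 18, 19 and 6 with A and B averaged, 16, 17 and 6 with letter A only, 13, 19 and 6 with letter B only, and 6, 6 and 2 with a 2-fold minimum. With A and B averaged, 6, 7 and 6 of the 10 genes were called in place of 7, 8 and 8, losing Dmc1, Sycp1, Hormad1 and Syce2 in 1 comparison each. Between the knockouts, 3 of the 10 genes were called with letter A only, 2 with letter B only and 5 with a 2-fold minimum, and in Dicer/Dnmt1 KO against WT 3 with a 2-fold minimum. Averaging or 1 letter leaves fewer libraries, and the minimum removes small changes by construction. Over all genes, averaging left 2288, 5134 and 1225 calls in place of 5289, 7985 and 4682, letter A only 1833, 4002 and 951, letter B only 1610, 4813 and 667, and the 2-fold minimum 901, 1650 and 589.

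Deviations from the genotype mean in same-numbered libraries of different genotypes had correlations of -0.42 to 0.37. Values of both signs, taken from means of few libraries, cannot show whether the numbers pair the libraries. With the number as a replicate block, 7, 7 and 8 of the 10 genes were called, and only Sycp2 in Dicer/Dnmt1 KO against WT lost its call (log2 -0.61, limma adjusted p = 0.0798, or 0.0716 with number and letter). Libraries of 1 number were closer to each other (SD of the log2 difference over genes 0.235 to 0.359) than most pairs of different numbers (0.304 to 0.750). The median of all genes shifted by over 0.1 log2 without the filter (0.18 and 0.24 against WT) and, in Dicer/Dnmt1 KO, when scaled to reads in genes (0.11), and no direction of a called gene turned. Depth limited Sycp2 and Sycp3, at 16 to 46 reads per library in Dicer/Dnmt1 KO.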
